A study of Mus musculus with 2 samples.

Results

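Reads of the class that the authors labelled genomic were examined where they fell on annotated genes of the mouse adrenal gland. A gene was taken when at least 5 of its reads carried that label in each of the 2 libraries. Spike-ins and genes of the mitochondrial chromosome were left out. The rule selected 338 of the 16910 annotated nuclear genes with a read, or 2.00%. Limits of 3 and 10 reads would take 738 and 105. Because the genomic read counts chose the genes, those counts and the shares built from them are given as a description with no test. The place of the reads along each gene was not used in the choice.

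The RNA came from adrenal glands of female mice, 2 months old, of the cross written B6CASTF1/J, with total RNA named as the starting material. The data were 2 long-read libraries of 1 group, called biological replicates 1 and 2. The biosample labels number the animals 3 and 4, while both library labels carry the number 3 and name 1 donor, so the spread between the libraries may be technical. The labels name 1 µg as the amount of RNA for replicate 1 and no amount for replicate 2. With no second condition, every comparison below is between these libraries or between kinds of reads.

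Long-read sequencing follows an RNA copy from end to end, so that a read shows which introns were removed. The program TALON compares each read with annotated transcripts, and reads that match neither an annotated chain of introns, a part of one, nor a new spliced combination are put in the genomic class. Messenger RNAs are cut and given a poly(A) tail a short distance after a signal, usually AATAAA and less often ATTAAA, in the terminal exon. The adrenal cortex makes steroid hormones from cholesterol in mitochondria and endoplasmic reticulum, and the medulla stores catecholamines in chromaffin granules.

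The 3′ ends of the genomic models carried the most direct sequence information, and 8 of them are shown because they held the most genomic reads of the ends considered, counted once per gene. Each is the last 30 bases up to and including the 3′ end of the model, 5′ to 3′ on the strand of the gene, from the GENCODE M21 transcripts on mm10, with AATAAA or ATTAAA in capitals.

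Cyp11a1, chr9:58026994-58027023, plus strand: agggagttAATAAAcacttgaacactgagg
Star, chr8:25815953-25815982, plus strand: aagtatATTAAAttgtgttaatagtcattc
Kcnk3, chr5:30625242-30625271, plus strand: cctAATAAAtgctgtccatggagaccaggc
Cyp21a1, chr17:34801348-34801377, minus strand: ataaatggtctcttcagatttcctcagcaa
Sdc3, chr4:130826284-130826313, plus strand: atttataagaggaAATAAAattaagctgaa
Fads2, chr19:10062765-10062794, minus strand: AATAAAaaaaaaaaagtaattttattctca
Apoe, chr7:19696267-19696296, minus strand: ttgcttAATAAAgattctccgagcacattc
Cyp11b1, chr15:74834701-74834730, minus strand: agcactttttttttctgctgctcttgcaga

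In 6 of these 8 windows the signal lay within the last 30 bases. For Cyp21a1 it lay within the last 40 bases but began before the printed stretch, and for Cyp11b1 it was in neither window. The 6 printed signals began 17 to 30 bases before the end of the model, and where the reads themselves end was not tested.

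The libraries held 1277310 and 520388 reads, of which 1209457 and 502655 belonged to annotated nuclear genes. Levels in CPM are reads scaled to the latter totals. Genomic reads made up 4.66% of them in replicate 1 and 2.46% in replicate 2. Markers of the adrenal cortex summed to 63522 and 82956 CPM and those of chromaffin cells to 11580 and 6677 CPM, with none of their 11 genes at 0. Adipocyte markers summed to 7188 and 7283 CPM, and of 3 kidney markers Slc12a1 was at 0 in both libraries while the 3 summed to 4.13 and 1.99 CPM. The part of other cell types in the genomic reads was not tested.

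The 338 genes held 23147 genomic reads in replicate 1 and 6077 in replicate 2, which were 41.0% and 49.2% of all genomic reads on annotated nuclear genes. These reads were grouped by the authors into 735 and 512 models, with a median of 2 and 1 per gene. Most models were unspliced: 684 of 735 and 483 of 512 had 1 exon, and they held 99% and 98.5% of the reads. The model of the median read was 2971 bases long in replicate 1 and 2633 in replicate 2. At the short extreme, 34 and 15 models were under 50 bases and held 2.51% and 1.60% of the reads. The files give 1 extent per model and none per read, so the positions below are those of models weighted by their reads. The shortest model was 1 base in each library, so the extent of a model need not be that of its reads. Whether each read covers its whole model or runs past it was not tested.

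Most of the genes code for proteins. Of the 338, 312 are protein coding, 20 are long noncoding RNAs, 4 are pseudogenes and 2 are small nucleolar RNA genes. Long noncoding RNAs were 1588 of all 16910 genes with a read, and 47 of the 6653 with 10 reads or more in both libraries. The share of protein-coding genes over all genes was not counted. Another annotated gene on the same strand overlaps the span of 79 of them, and 165 overlap a gene on the opposite strand, so reads in the shared stretches could be counted to either gene. The genomic reads were concentrated: Cyp11a1 alone held 31.7% and 33.9% of those of the 338 genes, and the 10 leading genes held 50.1% and 46.2%. The median gene had 24.5 genomic reads in replicate 1 and 7 in replicate 2.

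The genomic share, the genomic reads of a gene over all its reads, ranged from under 1% to the whole gene. Its median was 29.6% in replicate 1 and 18.5% in replicate 2, or 24.0% ± 7.80 (SD, n = 2). The middle 50% of genes lay between 11.3% and 67.9% in replicate 1 and between 6.93% and 44.8% in replicate 2. Genomic reads were the majority in 110 genes of replicate 1 and 75 of replicate 2, and under 5% in 44 and 60 genes. Over all 6653 genes with 10 reads or more in both libraries, the median share was 1.56% and 0%. The limit of 5 reads was set mostly by the shallower library. Exactly 5 genomic reads in replicate 2 were found in 94 of the genes, from Crem with 6 in replicate 1 to Cryba4 with 61, with median shares of 21.5% and 16.7%. Just outside, 128 genes had 4 in replicate 2 and at least 5 in replicate 1, with median shares of 26.0% and 14.8%.

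Cyp11a1 (ENSMUSG00000032323.13, chromosome 9, 58006411 to 58027023 of mm10, plus strand), the mitochondrial enzyme that cleaves the side chain of cholesterol, was the leading gene. Genomic reads were 7327 of its 24465 reads in replicate 1 and 2060 of 9983 in replicate 2. The shares were 29.9% (95% interval 29.4 to 30.5, exact Clopper-Pearson as for all shares here, counting error only) and 20.6% (19.8 to 21.4). These intervals did not overlap. The level of genomic reads was 6058 and 4098 CPM, 5078 ± 1386 (SD, n = 2). In replicate 1, 7292 of these reads sat in 1 model of 4062 bases, from 58022962 to 58027023. In replicate 2 all 2060 sat in 1 model of 2777 bases, from 58024247 to the same last base. Both models were unspliced and ran through exons 6, 7, 8 and 9, covering introns 6, 7 and 8 whole (283, 478 and 411 bases) and reaching into intron 5 (4211 bases). Intron bases were 80.9% of the model in replicate 1 and 72.1% in replicate 2. Exons of no other annotated gene overlapped either model. The rest of the gene's reads were mostly annotated transcripts, at 60.1% and 69.8% of all its reads, with incomplete splice matches at 6.67% and 6.26%.

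**Figure D1:**
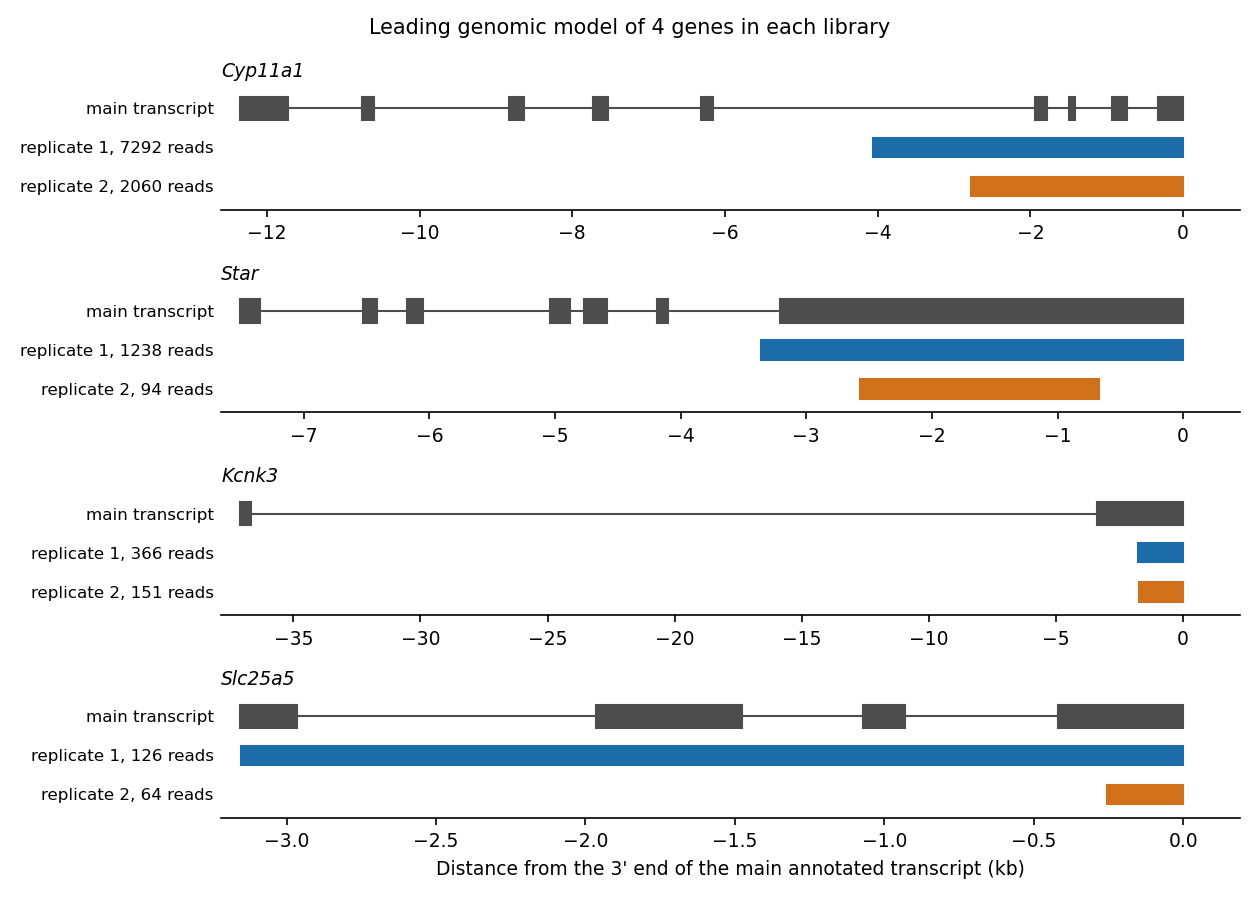
Genomic model with the most reads in each library for Cyp11a1, Star, Kcnk3 and Slc25a5 (replicate 1 blue, replicate 2 orange), below the exons (boxes) and introns (lines) of the main annotated transcript; the horizontal axis is the distance from that transcript's 3′ end in kilobases, on a separate scale per gene. The Cyp11a1 models of 4062 and 2777 bases cover its last 4 exons with the introns between them, while those of Kcnk3 lie inside the last exon; the Slc25a5 model differs in extent between libraries.

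Genes of steroid synthesis were the list with the most genomic reads, and 7 of its 21 genes were among the 338. In this list 19 genes had 10 reads or more in both libraries, and 304 of all 6653 such genes were selected. Of such genes with 1000 or more reads outside the genomic class over both libraries, 29 of 191 were selected. Outside Cyp11a1, the leading models of the next 3 genes lay in the terminal exon, except that the Star model of replicate 1 also reached into intron 6. Star, which carries cholesterol into mitochondria, had 1250 genomic reads of 11354 in replicate 1 (11%) and 98 of 4964 in replicate 2 (1.97%). Its leading model in replicate 1 covered the last exon and a stretch of intron 6 and ended at the annotated end shown above, whereas that of replicate 2 lay inside the last exon and ended 672 bases earlier. Only 1 read of replicate 2 shared the end with 1238 reads of replicate 1. Cyp21a1, the steroid 21-hydroxylase, had 462 of 16959 (2.72%) and 53 of 14111 (0.376%). Both of its leading models were short, 276 and 175 bases, and ended at the annotated end. Cyp11b1, the 11-beta-hydroxylase of glucocorticoid synthesis, had 492 of 13937 (3.53%) and 46 of 7998 (0.575%). Its leading models lay inside the last exon and ended 576 and 746 bases before the annotated end. Exons of Gml2 on the opposite strand overlapped both Cyp11b1 models, and exons of Tnxa overlapped both Cyp21a1 models. The Cyp11b1 end of replicate 2, at 74834871, was also an annotated end of Gml2, where 100 genomic reads of Gml2 ended in replicate 1. Which strand these reads came from was not tested.

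The other genes of that list had fewer genomic reads. Gramd1b, a sterol transfer protein of the endoplasmic reticulum, had 126 of 361 reads (34.9%) and 43 of 226 (19%). Mrap, the accessory protein of the corticotropin receptor, had 45 of 944 (4.77%) and 8 of 445 (1.80%). Fdxr, which passes electrons to mitochondrial P450 enzymes, had 23 of 1591 (1.45%) and 5 of 578 (0.865%). All 7 genes had the higher share in replicate 1. Over the 19 genes of the list with 10 reads or more in both libraries the median share was 1.36% and 0.376%, beside 1.56% and 0% over all genes, so the median gene of the list was near that of the genome. Pooled over reads, the list stood at 11.2% and 5.46% against 3.99% and 2.08%, and Cyp11a1 supplied most of its genomic reads.

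Of the 15 genes with the highest genomic level, 5 act on lipids outside steroid synthesis, a grouping made after their values were seen. The share of such genes over all genes was not counted. Apoe, the lipid-binding apolipoprotein E, had 325 of 2665 reads (12.2%) and 112 of 1124 (9.96%), all in a model of 354 bases with the same start and end in both libraries. Fads2, a desaturase of polyunsaturated fatty acids, had 406 of 2943 (13.8%) and 62 of 2030 (3.05%), with leading models of 1320 bases in both. Scd1 and Scd2 make monounsaturated fatty acids. Scd1 had 189 of 277 (68.2%) and 54 of 447 (12.1%), and Scd2 had 259 of 563 (46.0%) and 45 of 280 (16.1%). Agpat3, an acyltransferase of phospholipid synthesis, had 184 of 668 (27.5%) and 79 of 288 (27.4%). Its share thus differed little between the libraries, while those of both Scd genes were higher in replicate 1 with intervals that did not overlap.

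Of the 29 genes of cholesterol supply, 4 were among the 338. In this list 28 genes had 10 reads or more in both libraries, and 304 of all 6653 such genes were selected. Scarb1, the receptor that takes up cholesterol from high-density lipoprotein, had 137 of 3335 (4.11%) and 25 of 1541 (1.62%). Insig1, which retains the regulators of sterol synthesis in the endoplasmic reticulum, had 29 of 1181 (2.46%) and 5 of 309 (1.62%). Soat1, which esterifies cholesterol, had 17 of 418 (4.07%) and 5 of 477 (1.05%). Npc2, which moves cholesterol out of lysosomes, had 11 of 275 (4.00%) and 5 of 113 (4.42%). These shares were all below the median of the 338 genes.

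Among other lists, 4 of 28 mitochondrial enzymes and carriers were selected. All 28 had 10 reads or more in both libraries, and 304 of all 6653 such genes were selected. Slc25a5, an exchanger of ADP and ATP, had 126 of 834 (15.1%) and 64 of 408 (15.7%). Its model spanned all 4 exons and the 3 introns in replicate 1 (3154 bases) but only the last exon in replicate 2 (255 bases), with the same 3′ end. Slc25a4 of the same family had 38 of 649 (5.86%) and 12 of 230 (5.22%), inside the last exon in both. Hspa9, a mitochondrial chaperone, had 48 of 1296 (3.70%) and 7 of 536 (1.31%). Sdha, a subunit of succinate dehydrogenase, had 16 of 2178 (0.735%) and 7 of 735 (0.952%). Of 26 chromaffin genes 1 was selected: Cyb561, the cytochrome of catecholamine granules, with 61 of 630 (9.68%) and 8 of 145 (5.52%). In this list 16 genes had 10 reads or more in both libraries, so a count of 1 is near the background of 304 of 6653. None of 18 immediate early and stress genes was selected. Of these, 12 had 10 reads or more in both libraries, and 304 of all 6653 such genes were selected, so a count of 0 is near the background.

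Several leading genes belong to none of these lists. Kcnk3, an acid-sensitive background potassium channel, had 371 of 1357 (27.3%) and 153 of 1790 (8.55%). Its genomic reads stood at 307 and 304 CPM, while its other reads, scaled over reads outside the class, stood at 855 and 3339 CPM. Sdc3, a heparan sulfate proteoglycan of the cell surface, had 403 of 445 (90.6%) and 58 of 262 (22.1%). Its leading model was identical in both libraries, 3671 bases of the 3677-base last exon, ending 6 bases before the annotated end. Its other reads stood at 36.4 and 416 CPM. Cfl1, the actin-severing cofilin, had 226 of 341 (66.3%) and 28 of 189 (14.8%) in a model of 540 bases with the same extent. Nfe2l1, a transcription factor of proteasome genes, had 293 of 728 (40.2%) and 49 of 232 (21.1%), with a model that ran 2109 bases past the annotated end in replicate 1 and stopped at it in replicate 2.

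**Figure D2:**
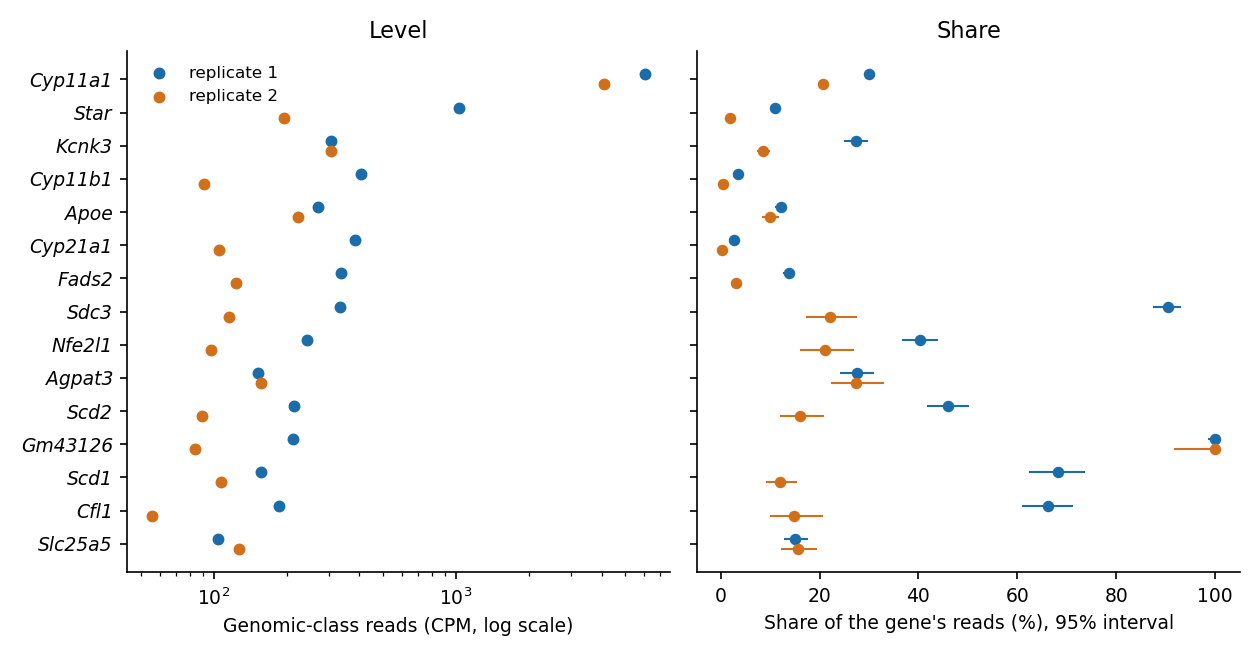
The 15 genes with the highest mean level of genomic reads. Left, genomic reads in CPM on a log axis; right, the share of the gene's reads that were genomic in percent with exact 95% intervals (counting error only); blue points are replicate 1 and orange points replicate 2. Cyp11a1 leads at 6058 and 4098 CPM, and the shares of Agpat3 and Slc25a5 lie close together while those of Sdc3, Scd1 and Cfl1 lie far apart.

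Against the annotation, the genomic models of the 338 genes sat at the 3′ part of their genes. The 3′ end of the model fell in the terminal exon for 88.1% of reads in replicate 1 and 88.8% in replicate 2, 88.4% ± 0.447 (SD, n = 2). It fell in an intron for 5.26% and 7.13%. The 5′ end came within 50 bases of an annotated start for 5.47% and 5.50%. Models with at least 50% of their bases in the terminal exon held 56.0% and 54.0% of reads, and those with at least 50% in introns held 37.5% and 41.5%. The intronic share depended on the limit: its mean of 39.5% became 4.34% when 90% of the bases had to lie in introns, and 13.7% when each gene counted equally. The mean terminal share of 55% became 92.4% when 10% of the bases sufficed. Cyp11a1 carried most of the intronic part: without it the terminal share was 81.7% in both libraries and the intronic share 8.63% and 11.5%.

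By shape, 40.4% and 43.9% of the reads had a model inside 1 exon of the main transcript, 36.9% and 39.2% spanned at least 1 whole intron of it, 8.06% and 2.65% crossed from an exon into an intron, and 1.86% and 3.54% lay inside introns. Without Cyp11a1 the first 2 shapes stood at 59.1% and 66.4%, and at 7.73% and 7.97%. Genomic reads of the remaining genes had 55% and 53.7% inside 1 exon and 10.5% and 9.97% spanning an intron. Incomplete splice matches of the 338 genes were inside 1 exon for 3.26% and 2.51% of reads and spanned an intron of the main transcript for 21% and 41.4%. Shape is part of how these classes are defined, so no difference between them is read from these values.

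**Figure D3:**
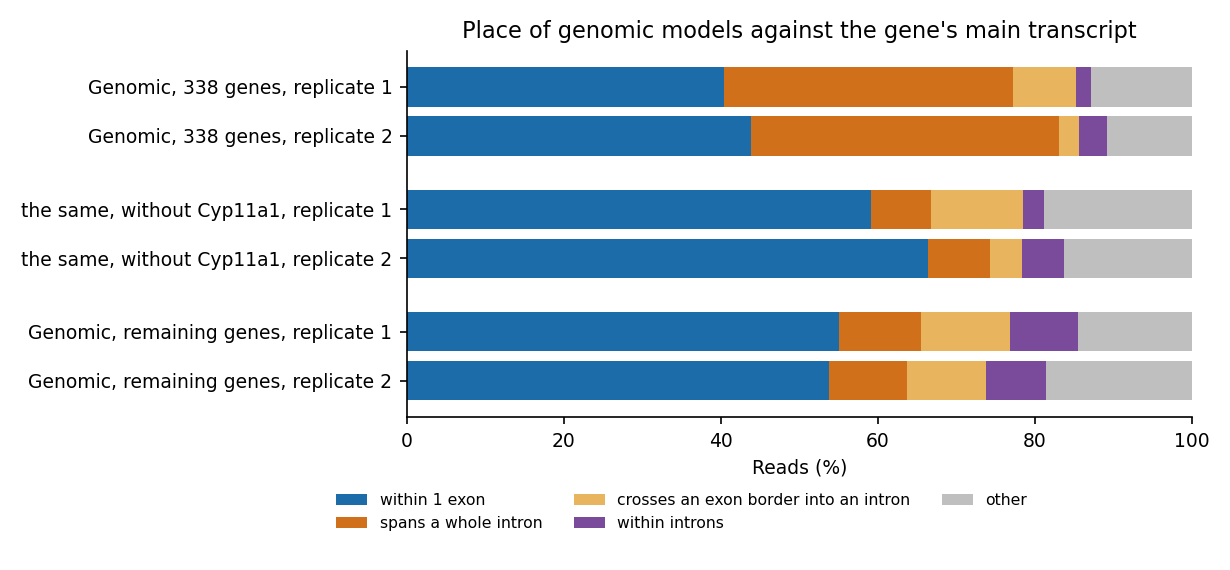
Percent of genomic reads by the shape of their model against the main annotated transcript, for the 338 genes, the same without Cyp11a1 and the remaining annotated nuclear genes, each in replicate 1 and replicate 2. Models inside 1 exon hold 40.4% and 43.9% of reads in the 338 genes and 59.1% and 66.4% without Cyp11a1; "other" joins spliced models, models running past the main transcript and those outside it.

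Counted by gene, 259 of the 338 had most of their genomic reads in the terminal exon in both libraries and 30 had most in introns. A model inside 1 exon was the majority in both libraries for 190 genes, of which 189 code for proteins. These had a median last exon of 2876 bases and median shares of 28.8% and 16.5%. In 152 of the 190 most reads ended within 50 bases of an annotated 3′ end in both libraries, and for all 338 this number was 219.

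Genes whose genomic reads spanned a whole intron formed a second shape, with 25 genes in both libraries. Bases of the gene that lie in no exon of any of its transcripts were few, with a median of 673 against 18174 for all 338, and the main transcript of 11 of the 25 has 2 exons. Their shares were lower, with medians of 13.3% and 7.22%. Map1lc3a, a protein of autophagosome membranes, had 153 of 1153 reads (13.3%) and 7 of 435 (1.61%), with a leading model over 3 introns in replicate 1 and 2 in replicate 2. Tsc22d1, a leucine zipper protein, had 75 of 882 (8.50%) and 31 of 542 (5.72%) in models of 3233 bases spanning both introns in both libraries. Ubb, which encodes polyubiquitin, had 69 of 3839 (1.80%) and 9 of 1449 (0.621%) across its only intron. Eif1, a factor of start codon selection, had 19 of 1071 (1.77%) and 6 of 432 (1.39%) over all 3 introns.

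Other genes of that shape were Tob1, an antiproliferative protein, with 34 of 371 (9.16%) and 13 of 278 (4.68%), and Dusp6, a phosphatase of ERK kinases, with 21 of 178 (11.8%) and 5 of 96 (5.21%). Ppia, the abundant cyclophilin A, had 9 of 1185 (0.759%) and 5 of 312 (1.60%) over all 4 introns. Abcb1b, a drug efflux pump with 28 exons, had 60 of 5115 (1.17%) and 12 of 1277 (0.940%), with 1 intron in the leading model. The splicing factors Srsf1 and Srsf2 were also in this set. In 22 of the 25 most genomic reads ended within 50 bases of an annotated 3′ end in both libraries. Cyp11a1 supplied 7327 of the 8152 genomic reads of these 25 genes in replicate 1 and 2060 of 2325 in replicate 2. Ppia, Ubb, Eif1, Cfl1 and Slc25a5 have near-identical copies elsewhere in the genome, as do Cyp21a1 and Cyp11b1 in part, so their counts are uncertain to that extent.

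Models wholly inside introns of the main transcript made up most genomic reads in both libraries for 9 genes: Gm7247, Abi1, Gm20388, Gm15337, Gm26694, Lyrm4, Gm44686, Gm47167 and Csnk2a2. Another gene on the same strand overlaps 6 of these 9. The main end of Csnk2a2 lies in a terminal exon of another of its transcripts, and none of its genomic reads were mostly in introns when all its transcripts were used. Gm7247 had all of its 21 and 69 reads in the genomic class, in intron 3. Abi1, an adaptor of the actin-regulating WAVE complex, had 91 of 112 (81.3%) and 37 of 58 (63.8%), with leading models of 2666 and 1749 bases in intron 1. No gene of this shape had most of its reads ending within 50 bases of an annotated 3′ end in both libraries.

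In 23 genes every read was genomic in both libraries, and 6 of these code for proteins. The long noncoding RNA Gm43126 had 258 and 42 reads, all in 1 model per library of which 87.8% and 87.5% of the bases lay past the annotated gene, over exons of Ccnd2 on the opposite strand. Gm20659 with 56 and 20 reads and Gm26724 with 64 and 32 also had most model bases outside the gene, opposite Dusp3 and Lemd2. Usp50, a member of a deubiquitinase family, had 102 and 27 reads. Of these, 100 and 26 sat in terminal-exon models of 259 bases that overlap exons of Gm10774 on the same strand, and the rest in an intron. Xist, the RNA of the silenced X chromosome, had 33 and 6 reads and its antisense partner Tsix 22 and 5. How the strand of a read was set is not given here, so reads of genes on opposite strands may not be told apart. Outside this set Tbx3os1, opposite Tbx3, had 146 of 155 (94.2%) and 30 of 38 (78.9%).

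The 3′ ends of the genomic models coincided with annotated ends. For 79.6% and 80.1% of reads the end was the same base as an annotated 3′ end of the gene, and for 2.09% and 1.12% it lay 1 to 50 bases away. Without Cyp11a1 the exact matches were 70.2% and 69.9%, and for genomic reads of the remaining genes 60.1% and 63.9%. Incomplete splice matches of the 338 genes had 70.7% and 75.7%. Whether ends near an annotated one were set to it when the models were built is not given in the sources used here and was not tested, so an exact match may cover a range of read ends.

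**Figure D4:**
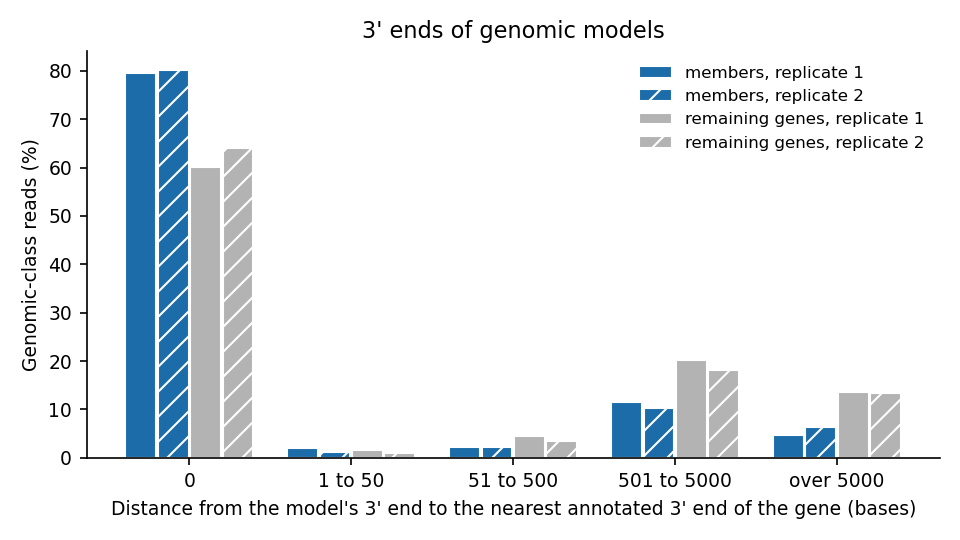
Percent of genomic reads by the distance, in bases, from the 3′ end of their model to the nearest annotated 3′ end of the gene, in replicate 1 and replicate 2, for the 338 genes and the remaining genes. The exact match holds 79.6% and 80.1% of reads in the 338 genes, and 11.5% and 10.2% lie in the bin next to the farthest, over 500 bases away.

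A poly(A) signal stood before most of these model ends, weighted by reads. Most of the ends lay on annotated bases, to which they may have been set. The bases searched came from annotated transcripts, so the signal may be that of the annotated end. Whether the reads themselves end there was not tested. AATAAA or ATTAAA, searched on the strand of the gene, was in the last 40 bases for 87.4% of 20495 reads in replicate 1 and 89.8% of 5404 in replicate 2 whose bases were known. Without Cyp11a1, whose signal is printed above, it was in 80.5% and 83.5%. Reads of annotated models of the same genes had 81.2% and 82.1%, and genomic reads of the remaining genes 75.6% and 77.7%. Of 43226 protein-coding transcripts, 50.3% held a signal in their last 40 bases, each counted once whatever its reads, and 2.99% held 1 in a window of the same length that ended 200 bases earlier.

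Copying from RNA can begin on a run of adenines inside a transcript as well as on the tail, so the 20 bases after each end were read where they lay in an annotated exon of the gene. They were known for 12.6% of the reads in replicate 1 and 14.1% in replicate 2, mainly ends before the annotated one, and the result covers only these. At least 12 of the 20 were A for 353 of 2925 reads (12.1%) and 60 of 858 (6.99%), in 39 and 20 models. In the same 338 genes such a run followed 33.1% and 14.9% of reads of incomplete splice matches and 5.36% and 2.41% of reads of annotated models whose next bases were known. It followed 15.9% and 10.4% of genomic reads of the remaining genes, and 1.03% of windows that ended 200 bases before annotated ends. The mean of 9.53% in the genomic class became 19.1% with each model counted once, 17.2% with each gene counted equally and 14.9% with 10 A of 20. The 3 genes whose A-rich ends held the most reads are shown as the last 10 bases of the model in lower case and the next 20 in capitals, from the same transcripts.

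Pisd, chr5:32736302-32736331, minus strand: ttttgaaattAAAAAAACAAAACAAAAACT
Nat8l, chr5:34003035-34003064, plus strand: taaagtgtttTAGCAAAATGGAAAACAAAC
Bace1, chr9:45862210-45862239, plus strand: tttacagggcAAAAAAAAAAAAAAAAAAAG

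Pisd, which makes phosphatidylethanolamine in mitochondria, had 48 and 9 reads at that end, with 16 A of 20. Nat8l, which makes N-acetylaspartate, had 38 and 6 with 12 A, at an end 2201 bases from the annotated one. Bace1, the beta-secretase, had 25 and 4 with 19 A. The ends of Pisd and Bace1 are also annotated ends of another transcript of the gene, so an A-rich window and an annotated end were not exclusive.

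Weighted by reads, the libraries shared most of the ends. Each gene was chosen for genomic reads in both libraries, and most model ends lay on annotated bases, to which they may have been set. Part of this sharing may thus be built in, and how much was not tested. In replicate 1, 85.8% of genomic reads had a model that ended within 50 bases of a genomic model of the same gene in replicate 2, and 87.9% in the other direction, 86.8% ± 1.54 (SD, n = 2). Without Cyp11a1 these were 79.4% and 81.8%. Counted by model they were 52.7% and 73.8%, and 230 and 112 of the models had 1 read. In 4 of the 15 genes with the highest genomic level, the end most used in replicate 1 held at most 1 read in replicate 2. These were Star with 1 read, and Cyp11b1, Nfe2l1 and Gm43126 with 0. For Gm43126 the ends of replicates 1 and 2 lay 2672 and 2607 bases past the annotated one, so its 0 rests on the limit of 50 bases.

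The shares of the genes were ordered alike but higher in replicate 1. Across the 338 genes the Spearman correlation of the shares was 0.81 and the Pearson correlation 0.79, as a description, with genes that share 2 libraries. The share was higher in replicate 1 in 220 genes, higher in replicate 2 in 94 and equal in 24. Intervals did not overlap, with replicate 1 higher, for 76 of the 304 members with 10 reads or more in both libraries (25%), against a background of 4.64% of all 6653 such genes. Replicate 2 was higher in 5 (1.64%), against 0.721%, and in 2 with 99% intervals. Since the choice of genes used these counts, nothing is read from either difference to the background. Over all annotated nuclear genes the genomic percent was also higher in replicate 1, at 4.66% against 2.46%.

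The 5 widest differences with replicate 1 higher, Sdc3 among them, lay in genes with last exons of 2096 to 3677 bases. The median over all 338 genes, 2372 bases, lies inside that range. Trp53inp2, an autophagy regulator, had 132 genomic reads of 135 in replicate 1 (97.8%) and 6 of 126 in replicate 2 (4.76%). Its leading model filled most of the last exon in replicate 1 but ran from exon 1 into intron 1 in replicate 2. Ttyh3, Samd4b and Tom1l2 differed by less and had few reads. Ttyh3 had 15 of 15 (100%) and 7 of 31 (22.6%), and Samd4b 14 of 16 (87.5%) and 5 of 27 (18.5%). Tom1l2 had 44 of 51 (86.3%) and 10 of 45 (22.2%). In the opposite direction, Akap2 had 26 of 154 (16.9%) and 14 of 20 (70.0%), Ddx6, an RNA helicase of mRNA decay, 11 of 76 (14.5%) and 8 of 12 (66.7%), and Glg1 9 of 298 (3.02%) and 6 of 14 (42.9%). Zbtb7a stood at 36.6% and 71.4% and Mrfap1 at 2.59% and 7.75%. All but Mrfap1 of these 5 genes had 28 reads or fewer in replicate 2.

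**Figure D5:**
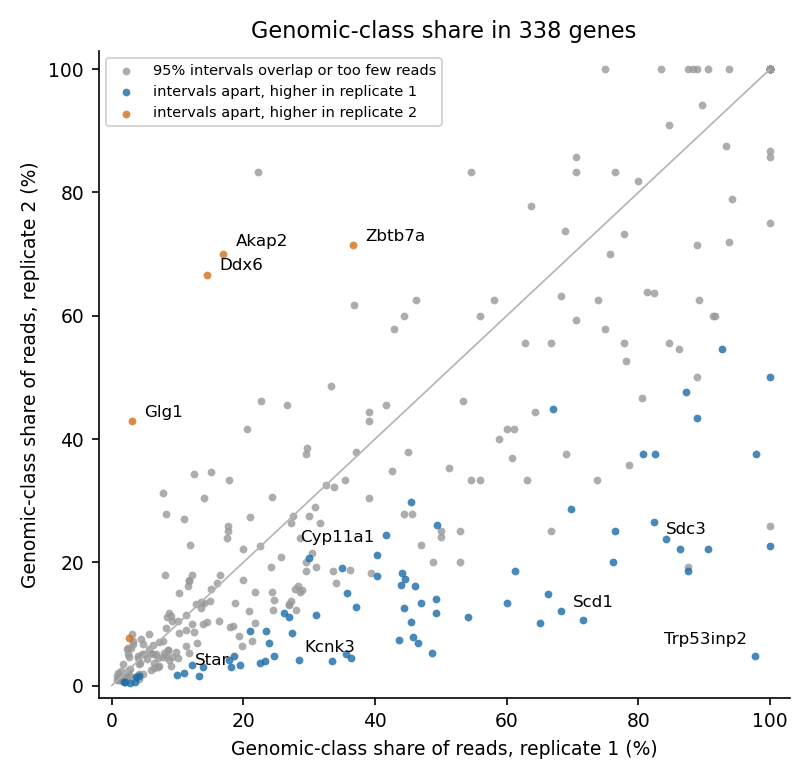
Genomic share of each of the 338 genes in percent, replicate 1 on the horizontal and replicate 2 on the vertical axis; colours mark genes whose exact 95% intervals do not overlap, and grey holds the rest, genes with under 10 reads in a library included. Of the 338 genes, 220 lie below the diagonal; 76 have intervals apart with replicate 1 higher and 5 with replicate 2 higher.

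The reads of these genes outside the genomic class were measured apart. With 0.5 added reads, their level was at least 2-fold higher in replicate 2 for 80 of 291 genes with at least 10 such reads (27.5%), against 12% of all 9691 genes, and at least 2-fold lower for 17 (5.84%), against 9.95%. With at least 50 such reads, 37 members were higher. The median log2 ratio of replicate 2 to replicate 1 was 0.26 in the members and -0.05 in all genes. The rule took genes by genomic reads that were scarce in replicate 2, so a link to their level in replicate 2 is built into the choice, and nothing is read from these counts. Among the leading genes the ratio was 3.5 for Sdc3, 3.39 for Scd1, 1.96 for Kcnk3 and 1.72 for Cfl1, while for Agpat3 it was 0.02 and for Apoe 0.02. No p-value belongs to these ratios, with 1 library on each side.

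Within each range of reads below, the members had a longer median last exon than the other genes. Members with under 10 reads outside the genomic class were not placed in a range. Among genes with 10 reads or more in both libraries, members with 10 to 49 reads outside the genomic class over both libraries had a median last exon of 2908 bases against 1373 for the rest of that range. From 50 to under 200 reads the medians were 2556 and 1073, from 200 to under 1000 reads 1971 and 853, and for 1000 reads or more 980 and 680. Read by last exon, 171 of 1719 genes (9.95%) with 2000 bases or more were members. This was 2.36% for genes under 500 bases, 2.25% from 500 to under 1000 and 3.36% from 1000 to under 2000. By number of exons, members were 10.1% of genes with 2 to 3 exons, 4.90% with 4 to 9, 3.09% with 10 or more and 1.97% of those with 1. These percentages follow from a rule on read counts and are descriptive.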

How the data were processed

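The authors deposited whole-number read counts per transcript model and library, not normalised, with the models on mm10. They rest on filtered alignments and GENCODE M21, per the readme files, and on version 3.0 of an ENCODE document for long reads, per the labels. TALON is the source named for new models. No aligner, platform or TALON version is given in the sources used here.

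Counts of genomic models were summed per annotated gene and scaled as CPM over annotated nuclear reads. The floor of 3 counts is 2.48 CPM in replicate 1 and 5.97 in replicate 2. Models were placed against M21 exons. The main transcript of a gene is its most abundant annotated one. Terminal exons are the last exons of any transcript of the gene. Intervals are Clopper-Pearson at 95% and cover counting error only. Python 3.11.15, pandas 2.3.3, scipy 1.17.1 and edgeR 4.0.16 (TMM alternative only) were used. The code for positions, intervals and folds was tested on simulated data. Members, lists and named genes were chosen with earlier results of these data known. Named genes were the 15 with the highest genomic CPM, 10 with the highest share, 5 most intronic, 5 most terminal, 5 with the widest difference each way and up to 4 per list. Genes named as examples of a shape or of A-rich ends, and Gramd1b, Mrap, Fdxr, Xist and Tsix, were chosen after their values were seen.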

Additional observations from a re-analysis of the deposited data

Results flagged for a closer look

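Genomic reads also occurred on new genes, which lie outside the annotated genes described above. In replicate 1 they were 1645 of 43507 reads of new antisense genes (3.78%) and 218 of 6307 reads of new intergenic genes (3.46%). In replicate 2 they were 268 of 11055 (2.42%) and 67 of 1656 (4.05%). Over annotated nuclear genes, genomic reads were 4.66% in replicate 1 and 2.46% in replicate 2. In the ERCC spike-ins, synthetic RNAs with no introns, 2 of 17326 reads (0.0115%) and 1 of 4787 (0.0209%) were genomic. An unspliced read can match such an RNA whole, so the spike-in level is no baseline for new genes. Mitochondrial genes had 0 of 713 and 0 of 235, which allows shares of up to 0.421% and 1.28%, taking 3 counts as the limit of a count of 0 (the exact Clopper-Pearson upper bounds are 0.516% and 1.56%).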

How the results depend on the processing

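Of 69 alternatives, 35 kept the value near that reported and 34 moved it. A count was near when within a fixed fold of that reported, and a percentage when within 1 SD of the 2 libraries. With 2 libraries, leaving 1 out keeps a percentage within 1 SD by construction, so those alternatives test nothing. No paired analysis was possible because there is 1 group. The 338 genes became 738 with at least 3 genomic reads and 105 with at least 10, and 415 to 2279 with 1 library left out. The median share was 33.8% with at least 10 reads and 18.5% to 29.6% with 1 library left out. Against means over both libraries of 39.5% intronic, 55% terminal and 9.53% A-rich, the intronic share was 43.6% at a limit of 10% of bases, 4.34% at 90%, 30.1% by model, 13.7% by gene, 36.1% with at least 3 reads, 48.1% with at least 10, and 37.5% to 41.5% with 1 library left out. Chosen after seeing the data, it was 10.1% without Cyp11a1 and 6.71% without the genes that overlap another on the same strand, Cyp11a1 among them. The terminal share was, in the same order, 92.4%, 50.4%, 63.6%, 78.8%, 57.8%, 46.8%, 54.0% to 56.0%, 81.7% and 84.4%. A-rich ends were 13.5% with 6 A of 10 bases, 14.9% with 10 A of 20, 19.1% by model and 17.2% by gene, and 6.99% to 12.1% with 1 library left out. Shared ends were 85.2% within 10 bases, 63.2% by model and 80.6% without Cyp11a1. Genes at least 2-fold higher outside the class were 37 with at least 50 reads, 134 with at least 3 genomic reads and 24 with at least 10, and those lower 40 and 5 under the last 2. Genes with intervals apart and replicate 2 higher fell to 2 at 99% and to 2 with replicate 1 thinned. Replicate 2 held fewer reads, so the membership of genes near 5 genomic reads is limited by its depth. The genome sequence was not used here, so bases after most ends were not read.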
